A study of Mus musculus with 22 samples.

Results

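The interferon-inducible GTPases of EMT6 tumours are described here by the transcripts of 10 genes, IGTP, IIGP1, IRGM1, IRGM2, TGTP1, GBP2, GBP3, GBP4, GBP5 and GBP6, chosen by name from the 24353 gene symbols of the series. All 10 were present in the tables of both cell fractions. Interferon gamma is secreted mainly by T cells and NK cells. It acts through a receptor of the subunits IFNGR1 and IFNGR2 and the kinases JAK1 and JAK2, and induces transcription factors such as IRF1. Immunity-related GTPases and guanylate-binding proteins are among the most strongly induced products of this pathway in mouse cells, where they assemble on the vacuoles of intracellular pathogens and disrupt them. IIGP1 (Irga6) and TGTP1 (Irgb6) are effectors among the immunity-related GTPases, IGTP (Irgm3), IRGM1 and IRGM2 are regulators of that family, and GBP2 to GBP6 belong to the guanylate-binding proteins. Because they respond to interferon in epithelial, stromal, endothelial and immune cells alike, their transcripts are widely read as a record of interferon exposure.

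EMT6, a mouse mammary carcinoma line, was implanted as 200000 cells into the inguinal fat pads on both sides of wild-type BALB/c mice aged 5 to 6 weeks, and bulk RNA was sequenced from cells separated with CD45 beads. JQ1, an inhibitor of BET bromodomain proteins, was given alone (50 mg/kg daily by gavage), with the anti-PD-L1 antibody 10F.9G2, with paclitaxel, a microtubule-stabilising drug, or with both (the 3-drug group), and vehicle-treated mice were the control. Antibody and paclitaxel were each given at 10 mg/kg in 2 injections a week. Every treated group received JQ1, so neither the antibody nor paclitaxel was seen without it, and the tumours came from a single implanted line. The CD45-negative fraction (tumour and stromal cells) held 2 libraries of JQ1, 2 of JQ1 with anti-PD-L1, 3 of JQ1 with paclitaxel, 3 of the 3-drug group and 2 of vehicle. The CD45-positive fraction (leukocytes) held 2 libraries of each of the 5 groups. The JQ1, JQ1 with anti-PD-L1 and vehicle pairs are the right and left tumour under 1 mouse code each. In the 2 groups that received paclitaxel every tumour has a mouse code of its own. The p-values use 1 spread shared by all 5 groups of a fraction. It mixes tumours within and between mouse codes and may be less than the spread between animals. Where a group holds 1 mouse code, treatment and animal cannot be told apart.

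PTPRC, which encodes CD45, lay at 1.25 to 8.65 FPKM (fragment counts scaled to gene length and library total) in the CD45-negative libraries and at 38.6 to 73.6 FPKM in the CD45-positive ones. Summed over 12 pan-leukocyte genes, CD45-negative cells reached 6.13% to 14.8% of the level in leukocytes from the matching tumour. The negative fraction was thus depleted of leukocytes but not free of them. Sums of 8 fibroblast markers were 1127 to 2623 FPKM in CD45-negative and 30.5 to 216 FPKM in CD45-positive libraries, and sums of 8 epithelial markers were 298 to 890 FPKM in CD45-negative and 12.6 to 94.1 FPKM in CD45-positive libraries. Absolute read depth is unknown, and depth relative to the other libraries of a fraction ranged from 0.547 to 1.79 in the CD45-negative and from 0.629 to 1.71 in the CD45-positive libraries. In bulk RNA, a change in the number of cells of a type and a change in RNA per cell cannot be told apart, which applies to every value given here.

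Interferon responses run through promoter elements named GAS and ISRE, and the promoter windows with matching letters are shown because the genes moved together across the libraries. Sequence for 7 of the 10 genes came from RefSeq (GRCm38.p6), in windows that run from 250 bases before to 50 bases after each gene start. In the printed lines, read 5′ to 3′ in the direction of the gene, capitals mark matches to GAAANNGAAA, an ISRE-like pattern, and to TTCNNNGAA, a GAS-like pattern, both searched on both strands. The windows are IGTP chr11:58199499-58199543 (plus strand), IRGM2 chr11:58214890-58214934 (plus strand), TGTP1 chr11:48992302-48992346 (minus strand), IRGM1 chr11:48871423-48871462 (minus strand), GBP2 chr3:142620592-142620625 (plus strand) and GBP3 chr3:142559987-142560026 (plus strand).
IGTP: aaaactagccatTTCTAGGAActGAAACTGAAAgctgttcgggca
IRGM2: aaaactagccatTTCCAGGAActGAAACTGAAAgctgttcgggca
TGTP1: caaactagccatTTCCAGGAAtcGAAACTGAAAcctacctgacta
IRGM1: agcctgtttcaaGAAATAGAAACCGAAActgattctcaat
GBP2: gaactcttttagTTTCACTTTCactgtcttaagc
GBP3: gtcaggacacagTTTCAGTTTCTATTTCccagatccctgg
The ISRE-like pattern stood in all 7 matched genes, against 3.99% of the 27025 genes in the table, and the GAS-like pattern in 4 of them (IGTP, IRGM2, TGTP1 and GBP5), against 9.55%. Both patterns were held by 4 of the 7 genes, against 0.54% of all genes. In IGTP, IRGM2 and TGTP1 the GAS-like match lay shortly before the ISRE-like one, and the windows of IGTP and IRGM2 shared 44 of their 45 letters. IRGM1 and GBP3 each held 2 overlapping ISRE-like matches. In GBP2, GBP3 and GBP5 the ISRE-like matches read on the strand opposite to the gene. The window of GBP5 is not printed here. IIGP1, GBP4 and GBP6 were not among the 7 genes with a window here, so these counts do not cover them. These are matches of letters, and binding at them was not measured.

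In the CD45-negative fraction GBP2 was the most abundant of the 10 transcripts. Levels are in FPKM, which is scaled to gene length, and the libraries are named by their tumour. GBP2 measured 58.9 and 65.0 FPKM in the JQ1 tumours C1_4R and C1_4L, 86.6 and 70.2 in the JQ1 with anti-PD-L1 tumours C2_3R and C2_3L, 103, 129 and 188 in the JQ1 with paclitaxel tumours C3_4L, C3_2R and C3_1R, 166, 225 and 153 in the 3-drug tumours C5_5L, C5_4R and C4_1R, and 89.5 and 95.1 in the vehicle tumours C9_4R and C9_4L. Both groups that received paclitaxel lay above every vehicle library, and both JQ1 tumours lay below every vehicle library. GBP3, in the same order, measured 17.4 and 16.3 FPKM with JQ1, 25.5 and 20 with JQ1 and anti-PD-L1, 20.5, 24.0 and 35.5 with JQ1 and paclitaxel, 56, 77.8 and 40.6 in the 3-drug group, and 25.7 and 24.0 with vehicle. For GBP3 the 3-drug group was the one in which every tumour lay above both vehicle libraries, and of the JQ1 with paclitaxel tumours C3_1R alone did. GBP4 measured 6.34 and 5.60 FPKM with JQ1, 6.62 and 3.26 with JQ1 and anti-PD-L1, 11.5, 15.5 and 26.2 with JQ1 and paclitaxel, 23.4, 55.5 and 12.4 in the 3-drug group, and 5.41 and 5.05 with vehicle. All 6 tumours that received paclitaxel exceeded the 6 that did not. The same was true of GBP2, IGTP and IRGM1, and how many of all genes separate in this way was not counted.

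GBP5, which in macrophages is linked to inflammasome activation, and GBP6 were expressed at lower levels. GBP5 measured 1.75 and 1.22 FPKM with JQ1, 3.62 and 1.97 with JQ1 and anti-PD-L1, 3.37, 6.94 and 6.54 with JQ1 and paclitaxel, 5.04, 9.38 and 2.97 in the 3-drug group, and 3.18 and 2.01 with vehicle. GBP6 measured 1.32 and 1.18 FPKM with JQ1, 1.17 and 1.25 with JQ1 and anti-PD-L1, 1.83, 3.24 and 10.1 with JQ1 and paclitaxel, 6.23, 18.9 and 1.95 in the 3-drug group, and 2.38 and 2.02 with vehicle. The JQ1 with paclitaxel tumours lay above vehicle for GBP5 and overlapped it for GBP6, and the 3-drug tumours overlapped vehicle for both genes. GBP6 shares long near-identical stretches with GBP10, and TGTP1 with TGTP2, so how reads were divided within each pair is uncertain.

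**Figure D1:**
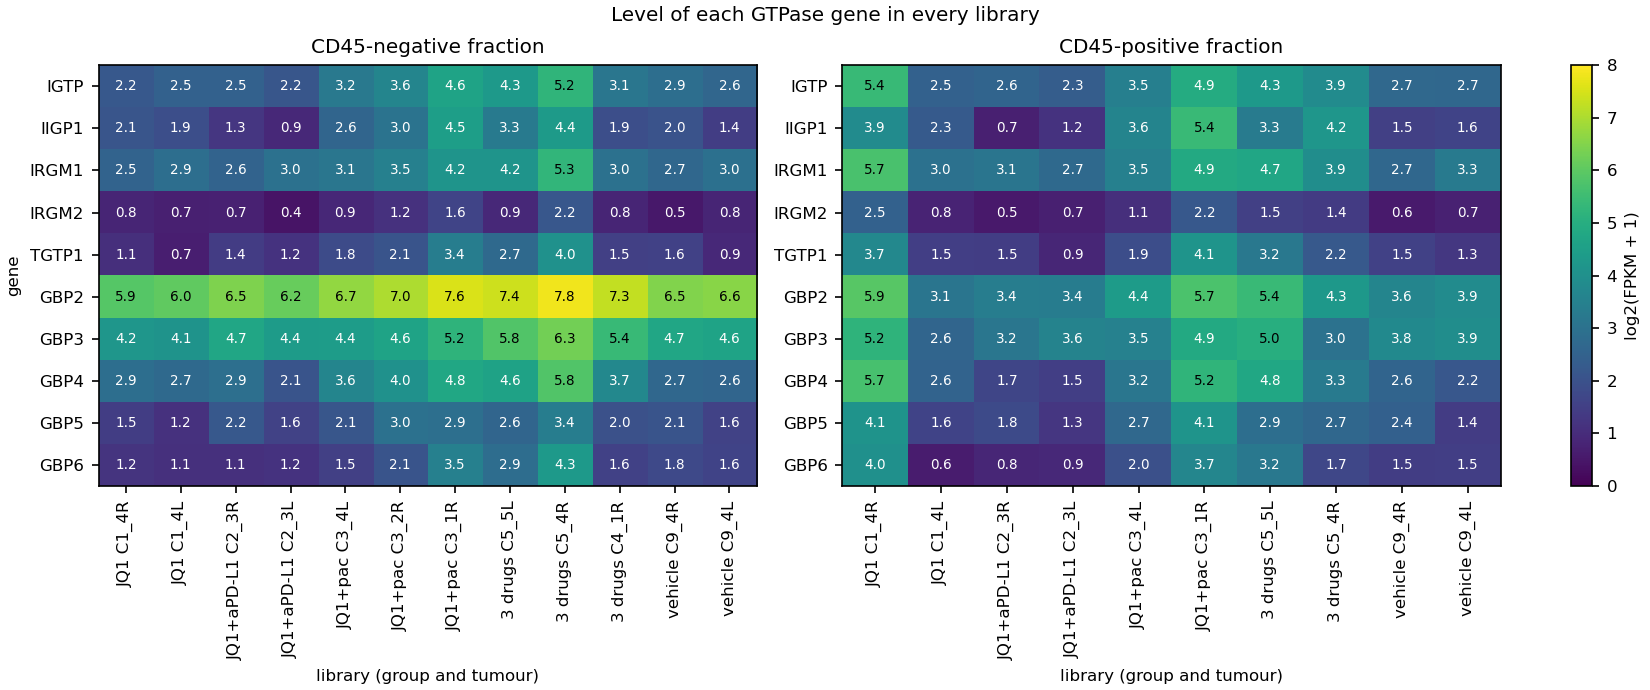
Heat maps of log2(FPKM + 1) for the 10 GTPase genes (rows) in every library (columns, by group and tumour) of the CD45-negative (left) and CD45-positive fraction (right), with that log2 value printed in each cell. GBP2 stands out in the CD45-negative fraction, where the 3-drug tumour C5_4R reaches 7.8 on this scale (225 FPKM), and the JQ1 tumour C1_4R is high in the CD45-positive fraction only.

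Among the immunity-related GTPases, the regulator IGTP measured 3.59 and 4.6 FPKM with JQ1, 4.57 and 3.45 with JQ1 and anti-PD-L1, 8.50, 11.4 and 23.8 with JQ1 and paclitaxel, 19.0, 36.8 and 7.76 in the 3-drug group, and 6.45 and 5.21 with vehicle. The effector IIGP1 measured 3.28 and 2.78 FPKM with JQ1, 1.43 and 0.894 with JQ1 and anti-PD-L1, 5.14, 7.23 and 21.3 with JQ1 and paclitaxel, 8.55, 19.6 and 2.76 in the 3-drug group, and 3.11 and 1.73 with vehicle. TGTP1 measured 1.10 and 0.606 FPKM with JQ1, 1.68 and 1.25 with JQ1 and anti-PD-L1, 2.58, 3.20 and 9.40 with JQ1 and paclitaxel, 5.70, 15.4 and 1.88 in the 3-drug group, and 1.94 and 0.902 with vehicle. All 3 transcripts were highest in C5_4R or C3_1R, and C4_1R was the lowest tumour of the 3-drug group for each. The regulator IRGM1 measured 4.85 and 6.48 FPKM with JQ1, 4.90 and 6.86 with JQ1 and anti-PD-L1, 7.77, 10.2 and 16.8 with JQ1 and paclitaxel, 16.8, 37.6 and 6.94 in the 3-drug group, and 5.36 and 6.80 with vehicle. IRGM2 was the least abundant, at 0.770 and 0.634 FPKM with JQ1, 0.660 and 0.334 with JQ1 and anti-PD-L1, 0.866, 1.22 and 2.11 with JQ1 and paclitaxel, 0.885, 3.48 and 0.770 in the 3-drug group, and 0.420 and 0.788 with vehicle. By median over the 12 libraries the order was GBP2 (98.9 FPKM), GBP3 (24.8), GBP4 (9.05), IGTP (7.11), IRGM1 (6.90), GBP5 (3.28), IIGP1 (3.20), GBP6 (1.98), TGTP1 (1.91) and IRGM2 (0.779). GBP2 exceeded GBP3, and GBP3 exceeded GBP4, in 12 of 12 libraries, whereas IGTP exceeded IRGM1 in 6 and GBP5 exceeded IIGP1 in 5 of the 12.

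Against vehicle, the CD45-negative tumours that had received paclitaxel held more GBP4, and with all 3 drugs also more GBP3. Fold changes are given on the log2(FPKM + 1) scale with their standard error, a scale that makes changes of low genes look smaller. A gene is called higher or lower where its limma p, adjusted over all tested genes, was under 0.05. In the 3-drug group 2 of 10 members rose and none fell, against 1.63% of all genes called, and their median log2 fold change was 1.28, against -0.07 over all genes. GBP4 averaged 30.5 ± 22.4 FPKM in the 3-drug group (SD, n = 3) and 5.23 ± 0.256 FPKM with vehicle (SD, n = 2), a log2 difference of 2.09 ± 0.47 (limma adjusted p = 0.0494). GBP3 averaged 58.1 ± 18.7 FPKM in the 3-drug group and 24.8 ± 1.19 FPKM with vehicle, a log2 difference of 1.15 ± 0.26 (limma adjusted p = 0.0488). GBP2, at 181 ± 38.0 FPKM against 92.3 ± 3.98 FPKM, missed the threshold at 0.95 ± 0.23 (limma adjusted p = 0.057). All 10 members lay above vehicle. IGTP, IIGP1, IRGM1, TGTP1, GBP2 and GBP5 did so at an unadjusted p under 0.05 only, a threshold that 19.6% of all genes passed. The pan-leukocyte sum was 356 to 609 FPKM in these 3-drug libraries and 274 to 360 FPKM with vehicle. Endothelial markers summed to 3.98 to 14.7 FPKM in the 3-drug group and 2.95 to 3.55 FPKM with vehicle, and dendritic cell markers to 3.95 to 18.5 FPKM in the 3-drug group and 2.64 to 3.12 FPKM with vehicle. Neutrophil markers summed to 6.22 to 12.6 FPKM in the 3-drug group and 21.8 to 23.4 FPKM with vehicle, with 2 of 4 tested called (RETNLG and S100A9, both lower). Macrophage and monocyte markers summed to 1200 to 1844 FPKM in the 3-drug group and 762 to 1158 FPKM with vehicle. The part of these cell types in the GTPase results was not tested. With the mean pan-leukocyte level as a covariate the GBP4 difference was 1.71 (limma adjusted p = 0.148) and that of GBP3 1.01 (limma adjusted p = 0.139). Neither call held with 1 value per mouse code (limma adjusted p = 0.451 for both). Both were also lost on leaving out any of C9_4R, C9_4L, C5_5L, C5_4R, C1_4R, C1_4L, C2_3R or C2_3L, which gave 1.54 to 2.15 for GBP4 (limma adjusted p from 0.061 to 0.237) and 0.91 to 1.19 for GBP3 (0.0638 to 0.223).

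With JQ1 and paclitaxel, 1 of 10 members rose and none fell, against 17.6% of all genes called, with a median of 0.81 against -0.07 (all genes). That member was GBP4, at 17.7 ± 7.59 FPKM with JQ1 and paclitaxel (SD, n = 3) and 5.23 ± 0.256 FPKM with vehicle (SD, n = 2), a log2 difference of 1.51 ± 0.47 (limma adjusted p = 0.0427). A further 4 members, IIGP1, IGTP, GBP2 and GBP5, lay above vehicle at an unadjusted p under 0.05 only, a threshold that 32.2% of all genes passed. The sum of 8 endothelial markers was 4.11 to 20.8 FPKM in these libraries and 2.95 to 3.55 FPKM with vehicle, with 1 of 5 tested markers called (ENG, higher). T cell markers summed to 0.401 to 1.83 FPKM here and 2.25 to 2.75 FPKM with vehicle. Neutrophil markers summed to 8.44 to 10.8 FPKM here and 21.8 to 23.4 FPKM with vehicle. The pan-leukocyte sums overlapped, at 221 to 633 FPKM here and 274 to 360 FPKM with vehicle. Macrophage and monocyte markers summed to 1157 to 3329 FPKM here and 762 to 1158 FPKM with vehicle. The part of these cell types in the GBP4 result was not tested. The GBP4 call was lost with 1 value per mouse code (limma adjusted p = 0.239). It was also lost on leaving out any of C9_4R, C9_4L, C5_5L, C3_2R, C3_1R, C1_4R or C1_4L (1.21 to 1.56, limma adjusted p from 0.0565 to 0.184).

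Without paclitaxel no member was called in either direction in the CD45-negative fraction. With JQ1 alone 0 of 10 members were called, against 14.8% of all genes, and 7 of the 10 lay below vehicle (median -0.40, against -0.05 over all genes). GBP2 had the largest difference, 61.9 ± 4.33 FPKM with JQ1 and 92.3 ± 3.98 FPKM with vehicle (SD, n = 2 each), -0.57 ± 0.25 on the log2 scale (limma adjusted p = 0.146). It was the 1 member with an unadjusted p under 0.05, against 30.9% of all genes. With JQ1 and anti-PD-L1 0 of 10 members were called, against 0.25% of all genes, with 0 at an unadjusted p under 0.05 (against 14.4% of all genes) and a median of -0.13 against -0.03 (all genes). IIGP1 differed most there, at 1.16 ± 0.376 FPKM with JQ1 and anti-PD-L1 and 2.42 ± 0.979 FPKM with vehicle (-0.64 ± 0.65, limma adjusted p = 0.711).

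**Figure D2:**
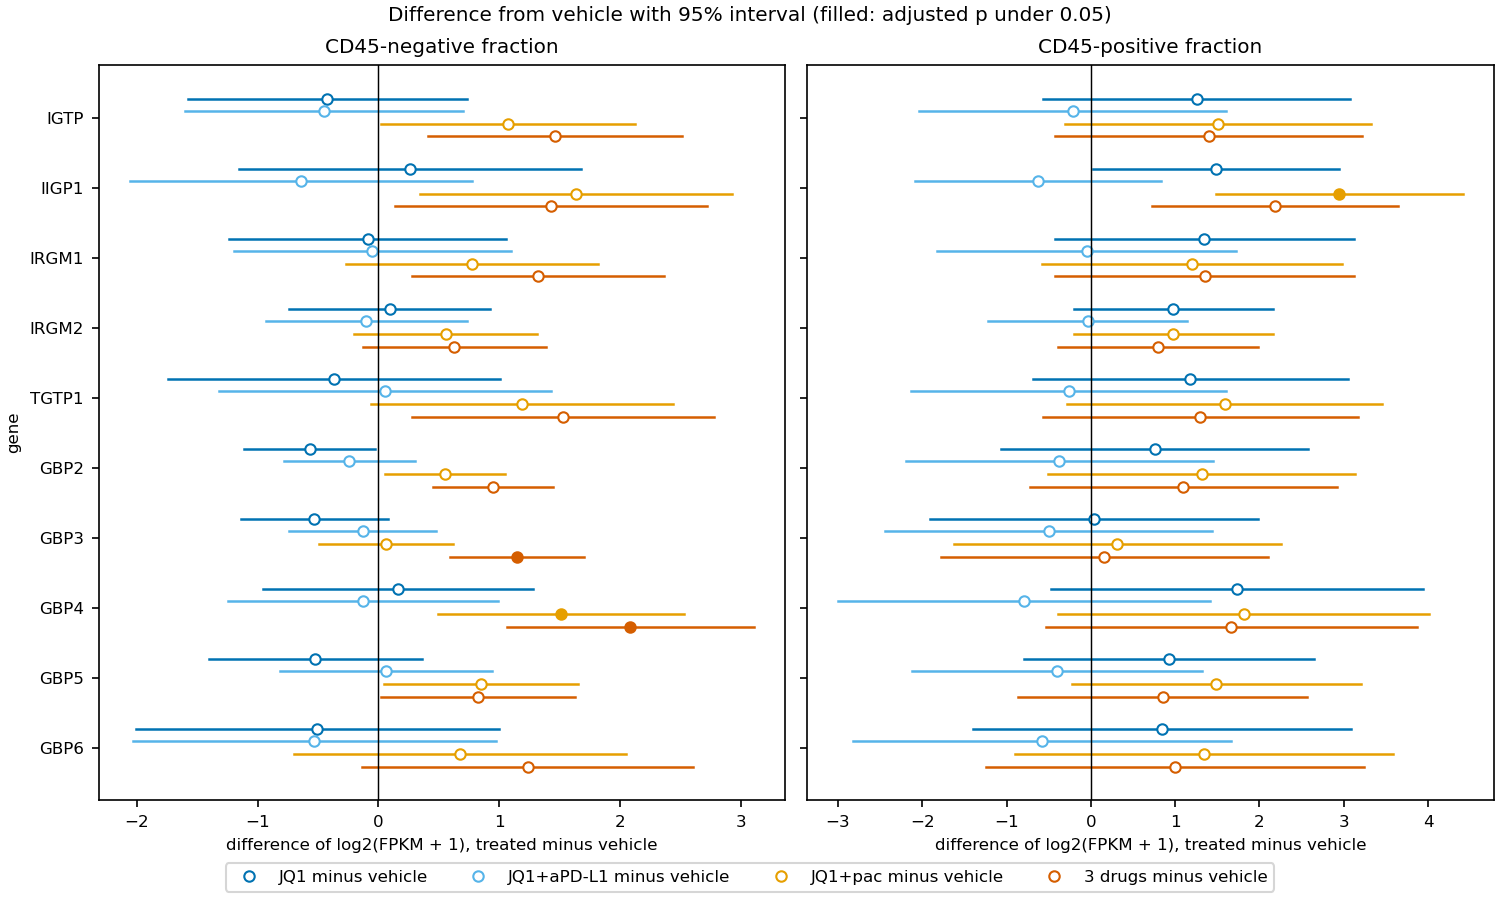
Difference of log2(FPKM + 1) from vehicle for each GTPase gene in the CD45-negative (left) and CD45-positive fraction (right), as points with 95% confidence intervals, 1 colour per treatment, filled where the limma adjusted p was under 0.05. Filled points are GBP3 at 1.15 and GBP4 at 2.09 for the 3-drug group and GBP4 at 1.51 for JQ1 with paclitaxel on the left, and IIGP1 at 2.95 for JQ1 with paclitaxel on the right.

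The drugs added to JQ1 were then compared with the group that lacked them. Adding paclitaxel to JQ1 with anti-PD-L1 raised GBP2, GBP3 and GBP4 in the CD45-negative fraction, 3 of 10 members with none lower, against 1% of all genes called (medians 1.42 for the members and -0.05 over all genes). GBP2 was 181 ± 38.0 FPKM in the 3-drug group (SD, n = 3) and 78.4 ± 11.6 FPKM with JQ1 and anti-PD-L1 (SD, n = 2), a log2 difference of 1.19 ± 0.23 (limma adjusted p = 0.0399). GBP3 was 58.1 ± 18.7 FPKM in the 3-drug group and 22.8 ± 3.95 FPKM with JQ1 and anti-PD-L1 (1.28 ± 0.26, limma adjusted p = 0.0425). GBP4 was 30.5 ± 22.4 FPKM in the 3-drug group and 4.94 ± 2.38 FPKM with JQ1 and anti-PD-L1 (2.22 ± 0.47, limma adjusted p = 0.0466). IGTP, IIGP1, IRGM1, TGTP1 and GBP6 lay higher at an unadjusted p under 0.05 only, a threshold that 14.9% of all genes passed. Each of the 10 members except GBP5 was higher in every 3-drug tumour than in both tumours of JQ1 with anti-PD-L1. For IRGM1 the gap was narrow (lowest 6.94 FPKM against highest 6.86 FPKM). How many of all genes separate in this way was not counted. The pan-leukocyte sums overlapped, at 356 to 609 FPKM in the 3-drug group and 515 to 698 FPKM with JQ1 and anti-PD-L1. Sums of T cell, B cell, NK cell, fibroblast and endothelial markers overlapped too, and those of 4 other cell types did not. Macrophage and monocyte markers summed to 1200 to 1844 FPKM in the 3-drug group and 2076 to 2774 FPKM with JQ1 and anti-PD-L1. Epithelial markers summed to 534 to 766 FPKM in the 3-drug group and 368 to 498 FPKM with JQ1 and anti-PD-L1. Dendritic cell markers summed to 3.95 to 18.5 FPKM in the 3-drug group and 2.92 to 3.25 FPKM with JQ1 and anti-PD-L1. The 8 neutrophil markers summed to 6.22 to 12.6 FPKM in the 3-drug group and 56.5 to 60 FPKM with JQ1 and anti-PD-L1, with 2 of 4 tested called (S100A8 and S100A9, both lower). Their part in the 3 GTPase results was not tested. All 3 calls were lost with 1 value per mouse code (limma adjusted p from 0.406 to 0.426). With only the compared groups in the fit the GBP4 call was lost (limma adjusted p = 0.0523), and with a pseudocount of 0.1 those of GBP3 and GBP4 were (limma adjusted p = 0.051 and 0.054). The calls were also lost on leaving out any of C5_5L, C5_4R, C1_4R, C1_4L, C2_3R or C2_3L, and for GBP4 also C9_4R, C9_4L or C3_4L. The differences were then 1.02 to 1.34 for GBP2, 1.05 to 1.45 for GBP3 and 1.67 to 2.64 for GBP4 (limma adjusted p from 0.0529 to 0.34).

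With paclitaxel added to JQ1 alone 10 of 10 members lay higher (median 1.27, against -0.02 over all genes), of which 0 were called, against 0.213% of all genes, and 7 had an unadjusted p under 0.05, against 13.4% of all genes. The largest difference was that of TGTP1, at 5.06 ± 3.77 FPKM with JQ1 and paclitaxel (SD, n = 3) and 0.852 ± 0.348 FPKM with JQ1 (SD, n = 2), 1.55 ± 0.58 on the log2 scale (limma adjusted p = 0.273). Adding anti-PD-L1 to JQ1 with paclitaxel raised GBP3, 1 of 10 members with none lower, against 15.9% of all genes called (medians 0.39 and 0.01). GBP3 was 58.1 ± 18.7 FPKM in the 3-drug group and 26.7 ± 7.86 FPKM with JQ1 and paclitaxel (SD, n = 3 each), and the lowest 3-drug tumour (40.6 FPKM) lay above the highest with JQ1 and paclitaxel (35.5 FPKM). The log2 difference was 1.08 ± 0.23 (limma adjusted p = 0.00855), and the call held under each of the 19 alternatives run (0.85 to 1.31, limma adjusted p up to 0.0401). The pan-leukocyte sum was 356 to 609 FPKM in the 3-drug group and 221 to 633 FPKM with JQ1 and paclitaxel, and with its mean as a covariate the GBP3 difference was 0.97 (limma adjusted p = 0.0289). The sums of B cell markers and of NK cell and cytotoxic markers overlapped between these groups, and those of T cell and dendritic cell markers did not. The T cell sum (9 markers) was 1.93 to 19.2 FPKM in the 3-drug group and 0.401 to 1.83 FPKM with JQ1 and paclitaxel, with 1 of 3 tested markers called (LCK, higher). The dendritic cell sum (9 markers) was 3.95 to 18.5 FPKM in the 3-drug group and 1.79 to 2.64 FPKM with JQ1 and paclitaxel, with 0 of 3 tested markers called. Their part in the GBP3 result was not tested. For the other 9 members the same comparison gave differences from -0.20 to 0.57, with 0 at an unadjusted p under 0.05, against 31.8% of all genes. Adding anti-PD-L1 to JQ1 alone left 0 of 10 members called, against 5.83% of all genes, and 0 at an unadjusted p under 0.05, against 23.2% of all genes. IIGP1 was the furthest apart at 1.16 ± 0.376 FPKM with JQ1 and anti-PD-L1 and 3.03 ± 0.352 FPKM with JQ1 (-0.91 ± 0.65, limma adjusted p = 0.435). With the compared groups alone in the fit the adjusted p of that IIGP1 difference was 0.0398. For the interaction of both drugs 0 of 10 members were called, against 0.00928% of all genes, and 0 had an unadjusted p under 0.05, against 7.15% of all genes. GBP4 was furthest from 0 at 0.86 ± 0.67 (limma adjusted p = 0.838).

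In the CD45-positive fraction the GTPase transcripts differed widely between tumours of the same group. IGTP measured 41.2 and 4.58 FPKM in the JQ1 tumours C1_4R and C1_4L, 5.01 and 4.08 in the JQ1 with anti-PD-L1 tumours C2_3R and C2_3L, 9.93 and 29.5 in the JQ1 with paclitaxel tumours C3_4L and C3_1R, 18.7 and 13.5 in the 3-drug tumours C5_5L and C5_4R, and 5.52 and 5.33 in the vehicle tumours C9_4R and C9_4L. IIGP1 measured 13.5 and 3.79 FPKM with JQ1, 0.637 and 1.27 with JQ1 and anti-PD-L1, 11.3 and 41.8 with JQ1 and paclitaxel, 8.96 and 17.4 in the 3-drug group, and 1.88 and 2.07 with vehicle. TGTP1 measured 12.3 and 1.79 FPKM with JQ1, 1.74 and 0.818 with JQ1 and anti-PD-L1, 2.70 and 16.6 with JQ1 and paclitaxel, 8.16 and 3.73 in the 3-drug group, and 1.91 and 1.47 with vehicle. The right and left JQ1 tumours of the same mouse code stood far apart, one the highest of all 10 libraries for IGTP and the other below vehicle. IRGM1 measured 50.6 and 6.85 FPKM with JQ1, 7.70 and 5.71 with JQ1 and anti-PD-L1, 10.3 and 28.3 with JQ1 and paclitaxel, 25.6 and 14.3 in the 3-drug group, and 5.34 and 8.89 with vehicle. IRGM2 measured 4.61 and 0.723 FPKM with JQ1, 0.446 and 0.636 with JQ1 and anti-PD-L1, 1.11 and 3.59 with JQ1 and paclitaxel, 1.86 and 1.62 in the 3-drug group, and 0.489 and 0.670 with vehicle. For all 5 of these GTPases, which moved together across the libraries, every library with paclitaxel lay above both vehicle libraries. The same was true of GBP2, GBP4, GBP5 and GBP6, given below, and not of GBP3. How many of all genes separate in this way was not counted.

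The guanylate-binding proteins showed the same tumours on top. GBP2 measured 59.3 and 7.59 FPKM with JQ1, 9.49 and 9.28 with JQ1 and anti-PD-L1, 20.2 and 51.9 with JQ1 and paclitaxel, 41.9 and 18.2 in the 3-drug group, and 11.4 and 13.6 with vehicle. GBP3 measured 35.5 and 5.13 FPKM with JQ1, 7.88 and 11 with JQ1 and anti-PD-L1, 10.4 and 27.9 with JQ1 and paclitaxel, 31.5 and 7.15 in the 3-drug group, and 12.9 and 14.2 with vehicle. GBP4 measured 49.6 and 4.87 FPKM with JQ1, 2.21 and 1.80 with JQ1 and anti-PD-L1, 7.89 and 36.4 with JQ1 and paclitaxel, 26.3 and 8.92 in the 3-drug group, and 5.01 and 3.48 with vehicle. For GBP3 the JQ1, JQ1 with paclitaxel and 3-drug pairs each had 1 tumour above and 1 below vehicle, and both JQ1 with anti-PD-L1 tumours lay below it. GBP5 measured 16.1 and 2.07 FPKM with JQ1, 2.48 and 1.41 with JQ1 and anti-PD-L1, 5.47 and 16.7 with JQ1 and paclitaxel, 6.39 and 5.39 in the 3-drug group, and 4.43 and 1.67 with vehicle. GBP6 measured 15.1 and 0.522 FPKM with JQ1, 0.798 and 0.899 with JQ1 and anti-PD-L1, 2.89 and 11.7 with JQ1 and paclitaxel, 8.27 and 2.27 in the 3-drug group, and 1.75 and 1.77 with vehicle. By median over the 10 libraries the order was GBP2 (15.9 FPKM), GBP3 (12), IRGM1 (9.60), IGTP (7.72), GBP4 (6.45), IIGP1 (6.37), GBP5 (4.91), TGTP1 (2.30), GBP6 (2.02) and IRGM2 (0.915). Neighbours were less separated than in the CD45-negative fraction, since GBP2 exceeded GBP3 in 7 and GBP3 exceeded IRGM1 in 6 of the 10 libraries.

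IIGP1 was the 1 member called against vehicle in leukocytes. With JQ1 and paclitaxel 1 of 10 members rose and none fell, against 4.84% of all genes called, with medians of 1.42 for the members and -0.09 over all genes. IIGP1 averaged 26.5 ± 21.5 FPKM with JQ1 and paclitaxel and 1.98 ± 0.13 FPKM with vehicle (SD, n = 2 each), a log2 difference of 2.95 ± 0.65 (limma adjusted p = 0.039). The sum of 8 endothelial markers, none of them at 0, was 45.7 and 61.4 FPKM in these 2 libraries and 4.01 and 7.84 FPKM with vehicle. All 7 tested endothelial markers were called higher, among them EMCN, PECAM1, KDR and TIE1. The pan-leukocyte sum was 2870 and 2972 FPKM with JQ1 and paclitaxel and 4281 and 4468 FPKM with vehicle. With JQ1 and paclitaxel fibroblast markers summed to 123 to 216 FPKM, neutrophil markers to 93.6 to 238 and macrophage and monocyte markers to 15672 to 20474. With vehicle these sums were 63.9 to 97.7, 469 to 769 and 14686 to 15288 FPKM. The part of these shifts in the IIGP1 result was not tested. With relative depth as a covariate the difference was 1.17 (limma adjusted p = 0.724). Relative depth was 0.905 and 0.629 with JQ1 and paclitaxel and 1.3 and 1.44 with vehicle, so depth and treatment cannot be fully told apart here. The call was also lost with 1 value per mouse code (limma adjusted p = 0.274) and on leaving out any of C9_4R, C9_4L, C3_1R, C2_3R or C2_3L (2.05 to 2.99, limma adjusted p from 0.0667 to 0.236).

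Other comparisons in the CD45-positive fraction called no member. With 2 libraries a group, a count of 0 called does not show that levels were alike. In the 3-drug group 0 of 10 were called, against 0.135% of all genes, 1 had an unadjusted p under 0.05 (against 8.73% of all genes) and 10 of 10 lay above vehicle (median 1.2, against 0.01). That 1 was IIGP1, at 13.2 ± 5.95 FPKM in the 3-drug group and 1.98 ± 0.13 FPKM with vehicle (2.19 ± 0.65, limma adjusted p = 0.382). With JQ1 alone 0 of 10 were called, against 1.04% of all genes, and 1 had an unadjusted p under 0.05, against 19.7% of all genes. GBP4 was furthest apart at 27.2 ± 31.6 FPKM with JQ1 and 4.25 ± 1.08 FPKM with vehicle (1.73 ± 0.97, limma adjusted p = 0.364). Without C1_4R that GBP4 difference was 0.18, so its size rested on this tumour. With JQ1 and anti-PD-L1 0 of 10 were called, against 0.029% of all genes, 0 had an unadjusted p under 0.05 (against 7.11% of all genes) and 10 of 10 lay below vehicle (median -0.39, against -0.06). GBP4 again differed most, at 2.01 ± 0.292 FPKM with JQ1 and anti-PD-L1 and 4.25 ± 1.08 FPKM with vehicle (-0.79 ± 0.97, limma adjusted p = 0.936).

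Of the comparisons between treated leukocyte groups, adding anti-PD-L1 to JQ1 gave 0 of 10 members called, against 0% of all genes, and 2 at an unadjusted p under 0.05, against 16.5% of all genes. GBP4 was at 2.01 ± 0.292 FPKM with JQ1 and anti-PD-L1 and 27.2 ± 31.6 FPKM with JQ1 (-2.52 ± 0.97, limma adjusted p = 0.252). That GBP4 difference was -0.97 without C1_4R and -4.08 without C1_4L. Adding anti-PD-L1 to JQ1 with paclitaxel gave 0 of 10 called, against 0.00967% of all genes, and 0 at an unadjusted p under 0.05, against 12.9% of all genes. IIGP1 was at 13.2 ± 5.95 FPKM in the 3-drug group and 26.5 ± 21.5 FPKM with JQ1 and paclitaxel (-0.76 ± 0.65, limma adjusted p = 0.656). That difference turned to 0.14 without C3_1R. Adding paclitaxel to JQ1 gave 0 of 10 called, against 0% of all genes, and 1 at an unadjusted p under 0.05, against 10% of all genes. That 1 was IIGP1 (26.5 ± 21.5 FPKM with JQ1 and paclitaxel and 8.62 ± 6.83 FPKM with JQ1, 1.46 ± 0.65, limma adjusted p = 0.497). It was 0.57 without C3_1R, 0.67 without C1_4L, 2.36 without C3_4L, 2.26 without C1_4R and 0.47 with relative depth as a covariate. Adding paclitaxel to JQ1 with anti-PD-L1 gave 0 of 10 called, against 0.00967% of all genes, and 2 at an unadjusted p under 0.05, against 8.9% of all genes. IIGP1 was furthest apart at 13.2 ± 5.95 FPKM in the 3-drug group and 0.954 ± 0.448 FPKM with JQ1 and anti-PD-L1 (2.81 ± 0.65, limma adjusted p = 0.49). For the interaction 0 of 10 were called, against 0% of all genes, and 0 had an unadjusted p under 0.05, against 10.3% of all genes. GBP4 was furthest from 0 at 2.37 ± 1.38 (limma adjusted p = 0.575). That value was 0.82 without C1_4R, 1.34 without C3_4L, 3.93 without C1_4L and 4.33 with relative depth as a covariate.

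Tumours with both fractions showed where the transcripts lay. GBP2 was higher in the CD45-negative library in 9 of 10 tumours, with a median ratio of 7.29 and a range from 0.992 to 12.3, and GBP3 in 9 of 10 with a median ratio of 1.90. The fractions were normalised in separate tables, so these ratios set levels side by side and were not tested. PTPRC in the same tumours had a median ratio of 0.0674. The immunity-related GTPases did not share that pattern, with median ratios of 0.945 for IGTP, 0.786 for IIGP1, 0.760 for IRGM1, 0.821 for IRGM2 and 0.828 for TGTP1, and higher CD45-negative levels in 3 or 4 of the 10 tumours. GBP4 (1.30) and GBP6 (1.25) lay near equal levels, and GBP5 at 0.754. In the JQ1 tumour C1_4R IGTP measured 3.59 FPKM in CD45-negative cells and 41.2 FPKM in leukocytes, the widest gap in that direction. In the 3-drug tumour C5_4R the order was the opposite, at 36.8 FPKM in CD45-negative cells and 13.5 FPKM in leukocytes. In the JQ1 with paclitaxel tumour C3_1R IGTP was high in both fractions, at 23.8 FPKM in CD45-negative cells and 29.5 FPKM in leukocytes.

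**Figure D3:**
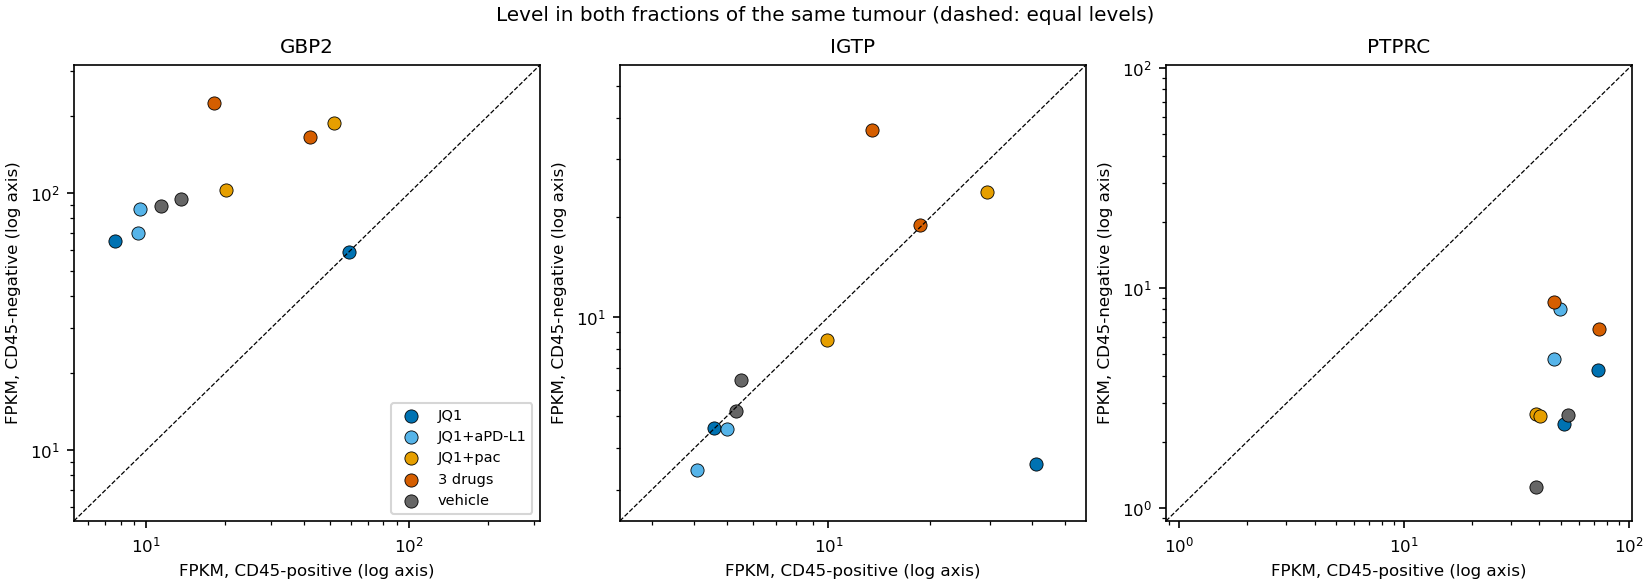
Level in the CD45-negative library (vertical) against the CD45-positive library (horizontal) of the same tumour, in FPKM on log axes, for GBP2, IGTP and PTPRC, with 1 point per tumour coloured by treatment and a dashed line at equal levels. GBP2 lies above the line in 9 of 10 tumours, IGTP scatters around it with C1_4R far to the right, and PTPRC lies below it in all 10.

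The 10 transcripts tended to move together from library to library. Pearson correlations of log2(FPKM + 1) between pairs of members ran from 0.65 to 0.97 over the 12 CD45-negative libraries (median 0.88, 45 pairs) and from 0.47 to 0.99 over the 10 CD45-positive libraries (median 0.94). After subtracting each group's mean the medians were 0.87 and 0.92, so tumours within groups also shared movement. In CD45-positive cells this rests mostly on few pairs. The members' mean log2 level had an SD of 1.807 with JQ1, 1.125 with JQ1 and paclitaxel and 0.549 in the 3-drug group. It had an SD of 0.057 with JQ1 and anti-PD-L1 and 0.033 with vehicle. The points of a pair share library, depth and cell mixture, and the values are descriptions without a test. The summed level of the 10 genes was 99.3 and 104 FPKM with JQ1, 137 and 109 with JQ1 and anti-PD-L1, 165, 212 and 340 with JQ1 and paclitaxel, 308, 499 and 231 in the 3-drug group, and 143 and 144 with vehicle in CD45-negative cells. In leukocytes it was 298 and 37.9 FPKM with JQ1, 38.4 and 36.9 with JQ1 and anti-PD-L1, 82.2 and 264 with JQ1 and paclitaxel, 178 and 92.5 in the 3-drug group, and 50.7 and 53.1 with vehicle. The JQ1 with anti-PD-L1 and the vehicle tumours were low and close together in both fractions, and the JQ1 pair was close in CD45-negative cells and far apart in leukocytes.

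Lymphocyte markers went with the GTPases in some of these tumours and not in others. The sum of 9 T cell markers in the table was 166 FPKM in CD45-positive C1_4R and 46.2 FPKM in its partner C1_4L, against 16.6 to 22.9 FPKM with vehicle, and none of the 9 was at 0. IFNG, the ligand itself, was 8.11 FPKM in C1_4R, 2.09 FPKM in C3_1R and 0 to 0.95 FPKM in the other 8 CD45-positive libraries. In the CD45-negative fraction the T cell sum was 19.2 FPKM in C5_4R, the tumour with the highest GTPase sum, and 0.401 to 5.03 FPKM in the other 11. C3_1R, with the second highest GTPase level in both fractions, had the lowest T cell sum in both, 0.401 FPKM in CD45-negative and 7.21 FPKM in CD45-positive cells. Its CD45-positive IFNG was the second highest of the 10, and its sum of 10 NK cell and cytotoxic markers was 15.6 FPKM, against 13.4 to 21 FPKM with vehicle and 56.7 FPKM in C1_4R. In it 6 of the 9 T cell markers were at 0 in CD45-negative cells. IFNG was listed at 0 in 10 of the 12 CD45-negative libraries, at 0.101 FPKM in C3_1R and at 0.317 FPKM in C5_4R. The part of lymphocyte content in the GTPase levels was not tested.

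Within the pathway the receptor subunit IFNGR1 did not follow the GTPases, with a Pearson r to the mean of the 10 members of -0.15 in CD45-negative libraries (n = 12) and 0.101 in CD45-positive ones (n = 10). The kinase JAK1 had a higher r, 0.811 in CD45-negative and 0.422 in CD45-positive libraries. The transcription factor IRF1 had 0.045 in CD45-negative and 0.854 in CD45-positive libraries. IRF1 averaged 42.0 ± 21.8 FPKM in the CD45-negative 3-drug group and 70.7 ± 31.9 FPKM with vehicle (-0.78 ± 0.41, limma adjusted p = 0.31). In leukocytes IRF1 averaged 73.1 ± 3.25 FPKM in the 3-drug group and 51.1 ± 6.11 FPKM with vehicle (0.51 ± 0.35, limma adjusted p = 0.68). IFNG passed the filter on low values only in the CD45-positive fraction, where JQ1 against vehicle gave 1.39 ± 0.81 (limma adjusted p = 0.381). Of 10 tested CD45-negative genes of receptor and signalling 0 were called in any of the 9 comparisons, against 0.00928% to 17.6% of all genes. Up to 3 had an unadjusted p under 0.05, against 7.15% to 32.2% of all genes. Of 11 tested CD45-positive ones also 0 were called, against 0% to 4.84% of all genes. Up to 6 had an unadjusted p under 0.05, against 7.11% to 21.3% of all genes.

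The genes outside the list with the most similar pattern included relatives of the members and known interferon targets. In the CD45-negative fraction the 8 highest correlations with the members' mean included those of TGTP2 (0.983), GBP8 (0.975), GBP10 (0.971), CD274 (0.965), AW112010 (0.963), GBP2B (0.952) and ARHGEF3 (0.931) over 12 libraries. In the CD45-positive fraction they were TGTP2 (0.991), GBP2B (0.983), SERPINA3G (0.975), UBD (0.973), GBP10 (0.972), SERPINA3F (0.965), FAM26F (0.957) and NAMPT (0.953) over 10 libraries. CD274 encodes PD-L1, the target of the antibody, and measured 1.62 and 1.78 FPKM with JQ1, 2.20 and 2.88 with JQ1 and anti-PD-L1, 3.17, 5.84 and 8.54 with JQ1 and paclitaxel, 9.23, 22.1 and 3.93 in the 3-drug group, and 2.62 and 1.48 with vehicle in CD45-negative cells. Of 17 other immunity-related GTPase and guanylate-binding protein genes in the table, 10 passed the filter in CD45-negative and 13 in CD45-positive cells. None of them was called in the 9 CD45-positive comparisons, against 0% to 4.84% of all genes. In the 9 CD45-negative ones 1 was called, against 0.00928% to 17.6% of all genes. That was GBP8, higher when paclitaxel was added to JQ1 with anti-PD-L1 (1.74 ± 0.37, limma adjusted p = 0.0477), where 1% of all genes were called. There in all 6 of the 10 had an unadjusted p under 0.05, against 14.9% of all genes. The GBP8 call was lost under 12 of 19 alternatives (1.38 to 2.85, limma adjusted p up to 0.456), among them leaving out any of C9_4R, C9_4L, C5_5L, C5_4R, C3_4L, C1_4R, C1_4L, C2_3R or C2_3L. Of 14 other interferon gamma induced genes 11 were tested in that fraction. Adding anti-PD-L1 to JQ1 with paclitaxel raised 3 of them with 0 lower, against 15.9% of all genes called. They were the antigen-processing genes TAP1 (0.68 ± 0.15, limma adjusted p = 0.0101) and PSMB8 (0.59 ± 0.14, limma adjusted p = 0.0157) and the chemokine CXCL10 (0.81 ± 0.24, limma adjusted p = 0.0387). TAP1 fell with JQ1 and paclitaxel against vehicle (-0.55 ± 0.17, limma adjusted p = 0.041), the 1 of 11 called there, against 17.6% of all genes. The CXCL10 call was lost under 11 of 19 alternatives (limma adjusted p up to 0.119) and the PSMB8 call under 3 (up to 0.073), so that 1 of 11 was called without C5_5L, without C3_4L or with the pan-leukocyte covariate, and 5 without C4_1R. The TAP1 fall was lost under 10 of 19 (limma adjusted p up to 0.239), among them leaving out C9_4R, C9_4L, C3_4L, C3_2R, C2_3R or C2_3L. None of the 11 genes was called in the 3-drug group against vehicle, against 1.63% of all genes. An unadjusted p under 0.05 was found there for 4 of them, against 19.6% of all genes.

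Genes of the type I interferon response kept another order of treatments. In the CD45-negative fraction JQ1 with paclitaxel lowered 6 of 14 tested type I genes and raised none (median -0.68), against 17.6% of all genes called, while 10 of 10 GTPases lay above vehicle. IFIT3, an antiviral effector, differed from vehicle by -1.68 ± 0.21 (limma adjusted p = 0.000377), and USP18, a negative regulator of type I signalling, by -1.77 ± 0.20 (limma adjusted p = 0.00023). JQ1 alone also lowered 6 of 14 and raised none, against 14.8% of all genes called, IFIT3 by -1.81 ± 0.23 (limma adjusted p = 0.000795). Adding anti-PD-L1 to JQ1 with paclitaxel raised 10 of 14 and lowered none (median 0.89), against 15.9% of all genes called, IFIT3 by 1.57 ± 0.19 and USP18 by 1.54 ± 0.18 (limma adjusted p = 0.000458 for both). Of the GTPases 1 of 10 was called there. The 6 type I calls of JQ1 with paclitaxel became 3 without C9_4L or C3_4L, 3 with no filter and 2 with 1 value per mouse code. The 6 of JQ1 became 2 without C9_4L or C1_4R, 3 without C9_4R or the filter, 1 with relative depth as a covariate and 0 with 1 value per mouse code. The 10 of the added antibody became 6 without C5_5L, C3_4L or the filter. IFIT3 measured 0.268, 0.251 and 0.377 FPKM with JQ1 and paclitaxel and 2.86 and 3.49 FPKM with vehicle, and the groups did not overlap. Over the 12 libraries the correlation with the GTPase mean was -0.01 for IFIT3 and -0.18 for USP18. In leukocytes it was -0.45 for IFIT3 and -0.43 for USP18. For BST2 and ISG15 it was 0.321 and -0.075 in CD45-negative cells, and -0.285 and 0.095 in leukocytes. Whether the lists differed in their response was not tested.

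**Figure D4:**
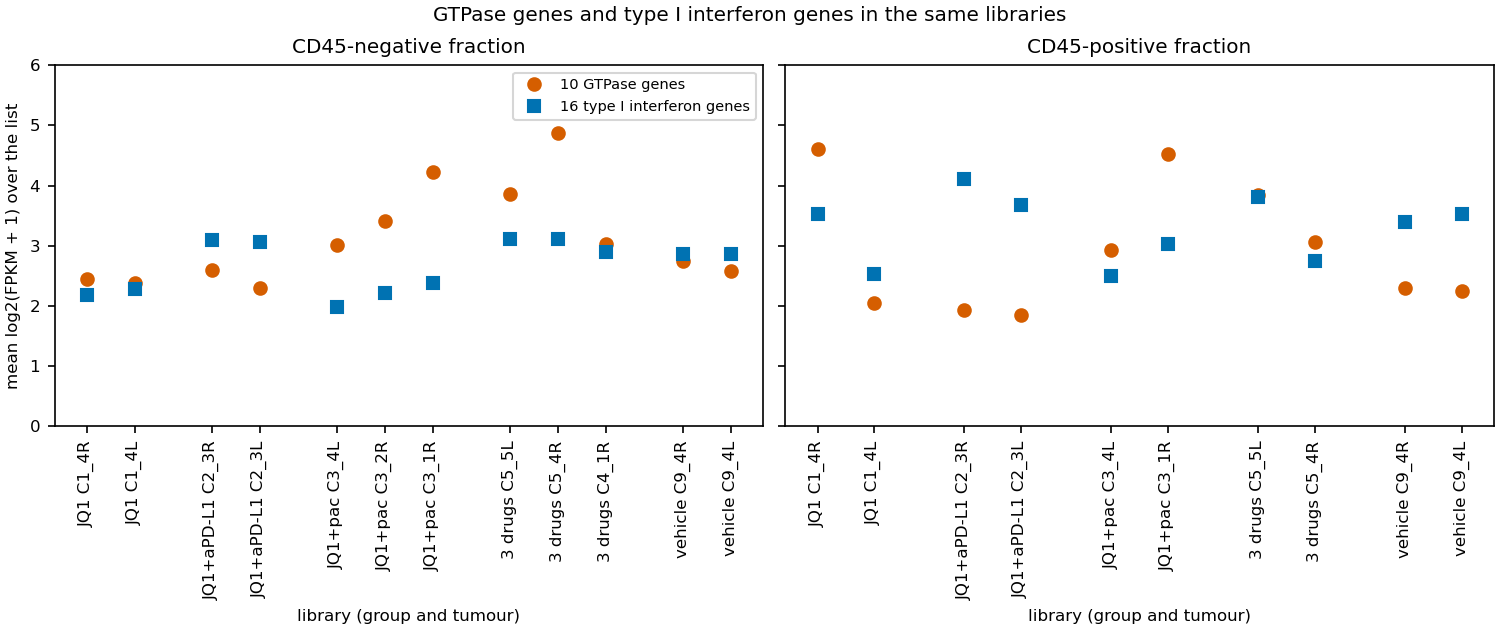
Mean log2(FPKM + 1) of the 10 GTPase genes (circles) and of 16 type I interferon genes (squares) in each library, by group and tumour, in the CD45-negative (left) and CD45-positive fraction (right). With JQ1 and paclitaxel the CD45-negative GTPase means are 3.01, 3.42 and 4.22 while the type I means stay at 1.97 to 2.38, below the 2.86 of vehicle. With JQ1 and anti-PD-L1 the type I means of 3.10 and 3.06 lie above the GTPase means of 2.59 and 2.30.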

How the data were processed

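Bulk RNA-seq of 22 libraries (12 CD45-negative, 10 CD45-positive) was analysed. The deposited tables hold 1 FPKM value per gene and library, in separate tables for the fractions. The unit was read from the values, since the deposited label speaks of counts but the values are not whole. STAR 2.5.1b and the mm9 build are named in the submitters' processing notes, and the tool that made the gene values is not given in the sources used here. Per the labels' protocols, libraries came from under 10 ng of RNA with the SMARTer v4 low-input kit, which may raise noise for low genes.

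Column sums were 296682 to 370513 FPKM (CD45-negative) and 315256 to 364118 FPKM (CD45-positive). Relative depth was estimated from the steps between low values, and absolute depth is unknown, so no counting interval is given. Columns of no known sample numbered 0.

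Values were set to log2(FPKM + 1). Genes at 1 FPKM or more in at least 2 libraries were tested, 10780 in CD45-negative and 10340 in CD45-positive cells, and all 10 members passed in both. Each fraction was fitted with its 5 groups in 1 model in limma 3.58.1 (R 4.3.3) with a trend in the prior variance, for 9 comparisons, with Benjamini-Hochberg adjustment over all tested genes and a threshold of 0.05. The residual degrees of freedom were 7 and 5. The fit was tested on simulated data. Summaries and figures used Python 3.11.15, pandas 2.3.3, numpy 2.4.6 and matplotlib 3.10.9.

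Groups came from the labels. Levels are given for all members, and fold changes for members called in a comparison or, where none was, for the one with the largest difference. Of each related list up to 4 called genes were named, with IFNG and IRF1 always, and the 8 genes most correlated with the members' mean. A gene of these lists is not reported here. The members and the 15 gene lists were chosen with earlier results of these data known. Alternatives were a pseudocount of 0.1, no filter, 1 value per mouse code, relative depth or the pan-leukocyte mean (CD45-negative cells only) as a covariate, equal library medians, only the compared groups in the fit, and leaving out each library.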

Additional observations from a re-analysis of the deposited data

Results flagged for a closer look

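TGTP1 differed in opposite directions between the fractions when anti-PD-L1 was added to JQ1. In CD45-negative cells it measured 1.68 and 1.25 FPKM with JQ1 and anti-PD-L1 and 1.10 and 0.606 FPKM with JQ1, a log2 difference of 0.42, so both tumours with the antibody lay above both without it. In leukocytes it measured 1.74 and 0.818 FPKM with JQ1 and anti-PD-L1 and 12.3 and 1.79 FPKM with JQ1, a log2 difference of -1.44, so both lay below. That difference was -0.32 without the JQ1 tumour C1_4R and -2.57 without C1_4L. The difference between the fractions was not tested, because their tables were normalised separately, and neither single difference passed the adjusted threshold in limma.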

How the results depend on the processing

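Each of the 21 named differences of members, the called ones or else the largest of its comparison, was recomputed under the alternatives, 372 values in all, of which 296 kept direction and side of the threshold, 73 lost the call, 1 gained it and 2 reversed. The reversed ones were both for IIGP1 in leukocytes when anti-PD-L1 was added to JQ1 with paclitaxel (-0.76), which became 0.90 with relative depth as a covariate and ranged from -1.66 to 0.14 on leaving out single libraries, the last without the JQ1 with paclitaxel tumour C3_1R. The cause of these changes was not tested. No paired analysis was possible because the treatments compared within a fraction share no tumour, mouse code or replicate number in the labels. The fractions of a tumour do share it, but their tables were normalised separately and were only set side by side. The other genes and list counts named were recomputed as an addition chosen after seeing the data. TAP1, IFIT3 and USP18 kept their calls for the antibody added to JQ1 with paclitaxel under all 19 alternatives, as did IFIT3 and USP18 for JQ1 with paclitaxel against vehicle, whereas IFIT3 for JQ1 against vehicle lost its call with 1 value per mouse code (limma adjusted p = 0.0652). GBP2 in the 3-drug group against vehicle passed the threshold under 3 of 19 (limma adjusted p from 0.024). Differences never called also moved. In leukocytes, with relative depth as a covariate, IIGP1 for paclitaxel added to JQ1 with anti-PD-L1 (2.81) became 4.68 and GBP4 for JQ1 with anti-PD-L1 against vehicle (-0.79) became -2.15. In CD45-negative cells GBP4 in the interaction (0.86) ranged from 0.32 to 1.35 on leaving out single libraries.

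In CD45-negative cells the number of members called for JQ1 with paclitaxel against vehicle (1) was 0 with no filter and with 1 value per mouse code, and 0 to 2 on leaving out single libraries. For the 3-drug group against vehicle (2) it was 0 with a pseudocount of 0.1, no filter, 1 value per mouse code, relative depth or the pan-leukocyte mean as a covariate, and 0 to 4 on leaving out single libraries. With paclitaxel added to JQ1 with anti-PD-L1 (3) it was 1 with a pseudocount of 0.1, 0 with no filter and with 1 value per mouse code, and 0 to 6 on leaving out single libraries. With anti-PD-L1 added to JQ1 (0) it was 1 with only the compared groups in the fit, with anti-PD-L1 added to JQ1 with paclitaxel (1) it was 1 to 2, and with paclitaxel added to JQ1 (0) it was 0 to 1 on leaving out single libraries. In leukocytes JQ1 with paclitaxel against vehicle (1) gave 0 with no filter, with 1 value per mouse code and with relative depth as a covariate, and 0 to 1 on leaving out single libraries.

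Counts over all genes also moved by over 1.5 times, in CD45-negative cells from 1592 to between 21 and 1744 for JQ1, from 1893 to between 274 and 1886 for JQ1 with paclitaxel and from 176 to between 5 and 322 for the 3-drug group, each against vehicle. They went from 629 to between 4 and 860 for anti-PD-L1 added to JQ1, from 1712 to between 919 and 1943 for it added to JQ1 with paclitaxel, and from 108 to between 0 and 234 for paclitaxel added to JQ1 with anti-PD-L1. In leukocytes 108 for JQ1 became 0 to 138, and 500 for JQ1 with paclitaxel became 0 to 772, each against vehicle. Counts of the other comparisons were 27 or fewer and moved by over 1.5 times too. Groups of 2 or 3 tumours and FPKM without counts limit the precision of low genes such as IRGM2.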

Other observations

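The closest relatives of 2 members gave levels near those of the members themselves. TGTP2 measured 3.35, 3.87 and 10.1 FPKM with JQ1 and paclitaxel, 7.00, 15.8 and 2.27 FPKM in the 3-drug group and 2.21 and 1.5 FPKM with vehicle in CD45-negative cells, in the same order of tumours as TGTP1 within each group. GBP10 measured 1.45, 1.95 and 7.67 FPKM with JQ1 and paclitaxel, 4.76, 16.1 and 1.90 FPKM in the 3-drug group and 1.73 FPKM in both vehicle tumours. How reads were divided between TGTP1 and TGTP2, and between GBP6 and GBP10, is uncertain.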
